A study of Mus musculus with 6 samples.

Results

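The phagocyte NADPH oxidase was followed here through 6 genes, *Cybb*, *Cyba*, *Ncf1*, *Ncf4*, *Rac1* and *Rac2*, chosen by symbol from the 25701 genes of the deposited count table. All 6 were found in the table, each in 1 row, and all 6 passed the filter on low counts. The RNA came from CD11b+ cells that were taken with magnetic beads from tumors grown under the skin of the flank, and 3 libraries were made for MCT2 CO mice and 3 for MCT2 KO mice. An age of 8 weeks is given for the samples of both groups. All mice were males of a C57BL/6 line in which the gene of MCT2 (*Slc16a7*), a transporter of lactate and pyruvate, is flanked by loxP sites. The MCT2 KO mice also carried an inducible Cre (mCre-Tg) that acts in the whole body and received tamoxifen at 8 weeks of age. The MCT2 CO mice, described as MCT2 transgenic, received vehicle, and whether each of them carried the Cre is not given in the sources used here. TC1 cells, a mouse lung epithelial tumor line, were injected 2 days later in every mouse, and the tumors grew for 24 days. Tamoxifen was thus given to the MCT2 KO group alone, so the drug, Cre activity and the reduction of MCT2 cannot be told apart, and the injected tumor cells kept their own MCT2 gene. The tissue is recorded as lung for all samples, but the tumors grew in the flank.

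The oxidase is an enzyme of phagocytes that moves electrons from NADPH across a membrane onto oxygen and so makes superoxide. Its core, flavocytochrome b558, sits in the membrane and is built of gp91phox (NOX2), the product of *Cybb*, and p22phox, the product of *Cyba*. In resting cells other parts stay in the cytosol. Among these are p47phox from *Ncf1*, the organizer, and p40phox from *Ncf4*, which binds a lipid of the phagosome. A Rac GTPase completes the active enzyme. *Rac2* is used mainly in blood cells, and *Rac1* is present in nearly all cells. Loss of the core or of a phox subunit causes chronic granulomatous disease, in which phagocytes ingest microbes but kill them poorly, and in tumors the oxidase of myeloid cells is known as a source of reactive oxygen.

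The libraries held 24863611 to 31713704 counts each. The targeted gene *Slc16a7* had 481, 287 and 298 counts in MCT2 CO and 196, 162 and 133 in MCT2 KO, or 12.8 ± 2.84 and 6.18 ± 1.78 CPM (counts scaled to library size by TMM, SD, n = 3). Every MCT2 KO library was below every MCT2 CO library, and the log2 fold change was -1.05 (adjusted p = 0.370 by edgeR and 0.00908 by DESeq2). Of 11 macrophage markers, 10 were measured well. The exception, *Itgam*, which encodes CD11b itself, had 1 count over the 6 libraries together, and 99.1% of its exon bases lie inside the span of another gene. Other cell types were present too. The 6 fibroblast markers summed to 2015 to 3295 CPM (MCT2 CO) against 1680 to 1790 (MCT2 KO), without overlap, with 3 of the 6 called lower by DESeq2 (0.448% of its genes were called in either direction) and 0 by edgeR, and the 5 B cell markers to 14.6 to 15.8 and 3.47 to 14.05 CPM, also without overlap. The 3 eosinophil markers, at 0.654 to 1.05 and 1.17 to 1.57 CPM, did not overlap either. The sums of monocyte markers (1609 to 2387 CPM over the 6 libraries), T cell (9.64 to 71.6), NK cell (18.5 to 35.5), dendritic cell (19.6 to 35.9), epithelial (13.9 to 33.5) and endothelial markers (76.5 to 131) overlapped between the groups. In the monocyte sum *Fn1* was the highest gene, and this sum, as that of the fibroblast markers, was highest in MCT2 CO replicate 3. Of the 5 monocyte markers, 2 were higher and 3 lower in MCT2 KO. Among the 6 dendritic cell markers, 1 was higher and 5 lower, where 50.1% of all tested genes were higher. In the NK cell sum *Prf1* was the highest gene. Of its 5 markers, 1 was higher and 4 lower in MCT2 KO, 3 of them without overlap (8.77% of all tested genes). DESeq2 called 1 NK cell and 1 B cell marker lower, and edgeR called 0. The part of these cells in the values of the oxidase genes was not tested. In bulk RNA, more cells of a type and more RNA of a gene per cell cannot be told apart.

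The stretches in front of 3 of the members are shown as sequence only, and their part in the values of these genes was not tested. They were taken from RefSeq on GRCm38.p6, each with 150 bases before and 30 bases after the annotated start, and all 3 genes lie on the minus strand. Entries were found for 3 of the 6 members. Capitals mark matches on either strand to GAGGAA, a core of sites for PU.1, to GAAA followed after any 2 bases by a further GAAA, a pair of cores bound by interferon regulatory factors (IRF pair), and to GGGCGG, the GC box of Sp1-type factors. The stretches were chrX:9469295-9469474 for *Cybb*, chr8:122432911-122433090 for *Cyba* and chr5:134229596-134229775 for *Ncf1*. The *Cybb* stretch lies inside the longer *Cybb* span that GENCODE M21 gives.
*Cybb*: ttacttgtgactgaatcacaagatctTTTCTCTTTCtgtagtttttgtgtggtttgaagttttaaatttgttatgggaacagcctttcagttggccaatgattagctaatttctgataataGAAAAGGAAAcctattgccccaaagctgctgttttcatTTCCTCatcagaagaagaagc
*Cyba*: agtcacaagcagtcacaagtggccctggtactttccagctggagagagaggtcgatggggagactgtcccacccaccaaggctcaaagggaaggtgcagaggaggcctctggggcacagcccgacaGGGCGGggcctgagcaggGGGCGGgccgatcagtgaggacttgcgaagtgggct
*Ncf1*: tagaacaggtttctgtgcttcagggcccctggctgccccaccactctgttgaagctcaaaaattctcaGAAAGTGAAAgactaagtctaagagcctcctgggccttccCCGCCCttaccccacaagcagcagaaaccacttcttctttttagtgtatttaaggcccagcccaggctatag

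The *Cybb* stretch held 2 IRF pairs and a PU.1 core that lies just behind the annotated start. The *Ncf1* stretch held 1 IRF pair and 1 GC box. The *Cyba* stretch held 2 GC boxes and neither of the other motifs. Among all 32851 RefSeq promoter stretches of this length, 17.5% held GAGGAA, 1.9% held the IRF pair and 31.0% held GGGCGG. No marked match overlapped another. A match is a description of the letters and not a measured binding site.

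To ask whether reduction of host MCT2 was accompanied by a change in the oxidase, the 3 MCT2 KO libraries were compared with the 3 MCT2 CO libraries by edgeR's quasi-likelihood test over 13485 genes. A gene was called when its adjusted p was 0.05 or lower and its log2 fold change reached 0.58 in either direction. By this rule 0 of 6 members were called, as were 0% of all genes tested. At an unadjusted p under 0.05, again 0 of 6 members were found, against 3.77% of all tested genes higher in MCT2 KO and 5.6% lower. DESeq2, run on every gene with a count, also called 0 of 6 members, against 0.448% of its genes. It placed *Cyba* alone of the 6 under an unadjusted 0.05 (adjusted p = 0.514 by DESeq2), against 3.05% of its genes that were higher. The estimated log2 fold change was above 0 for all 6 members, between 0.085 and 0.33 with a median of 0.21, where 50.1% of all tested genes were above 0 and their median was 0.00037. In all 6 members, 2 of the 3 MCT2 KO libraries lay above the highest MCT2 CO library, a pattern met by 24.2% of all tested genes at 2 or more libraries. In none of the 6 did all 3 lie above, which 7.07% of all tested genes did, while in 8.77% all lay below and in 15.8% the groups did not overlap in either direction. The plot of the members by library shows this overlap.

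**Figure D1:**
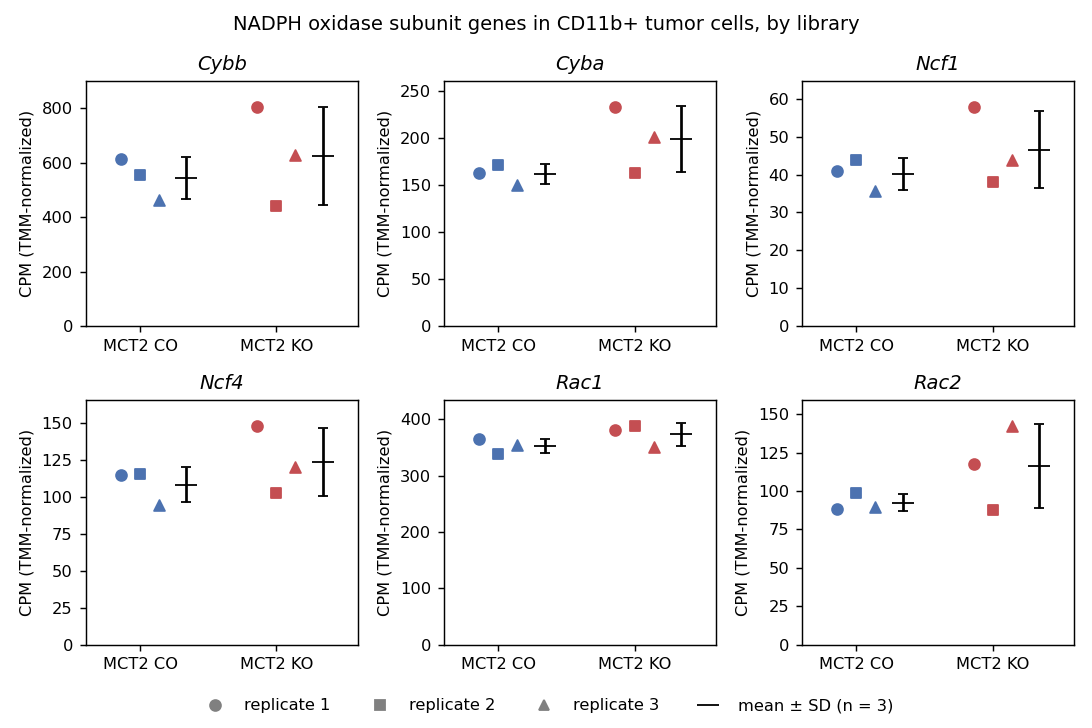
Normalized expression (CPM, TMM-normalized, linear axis from 0) of the 6 members in the 3 MCT2 CO (blue) and 3 MCT2 KO (red) libraries; symbols mark replicates 1, 2 and 3 and the black bar gives the mean ± SD (n = 3). In every panel the groups overlap, and for *Cybb*, *Cyba*, *Ncf1* and *Ncf4* the highest point is MCT2 KO replicate 1.

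In the membrane core, *Cybb* (ENSMUSG00000015340, X:9435252-9487771 of GRCm38, minus strand), the catalytic subunit that carries the heme and flavin groups, had 615, 556 and 462 CPM in MCT2 CO replicates 1 to 3, and 803, 441 and 628 CPM in MCT2 KO replicates 1 to 3. The MCT2 KO libraries thus held both the highest and the lowest of the 6 values. The means were 544 ± 77.4 and 624 ± 181 CPM (SD, n = 3), giving a log2 fold change of 0.20 with a standard error of 0.21 (95% interval -0.29 to 0.69, adjusted p = 0.797 by edgeR). Its direction rested on a single library, since the log2 fold change was -0.019 without MCT2 KO replicate 1 and 0.40 without MCT2 KO replicate 2.

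*Cyba* (ENSMUSG00000006519, 8:122424776-122432930, minus strand), whose small membrane protein stabilizes the catalytic subunit and anchors the organizer, had 162, 171 and 150 CPM (MCT2 CO) against 232, 163 and 201 (MCT2 KO). MCT2 KO replicates 1 and 3 were above all MCT2 CO libraries, and MCT2 KO replicate 2 lay among them. The means were 161 ± 10.6 and 199 ± 34.8 CPM (SD, n = 3). Its log2 fold change was 0.30 with a standard error of 0.13 (95% interval -0.0032 to 0.61), and it had the smallest p of the 6 members, 0.0519 unadjusted and 0.539 adjusted by edgeR's quasi-likelihood test. Of all tested genes, 7.42% had a larger log2 fold change.

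Among the cytosolic members, *Ncf1* (ENSMUSG00000015950, 5:134220053-134229625, minus strand), whose product is phosphorylated on activation and carries the complex to the membrane, had 40.9, 43.8 and 35.6 CPM (MCT2 CO) against 57.8, 38.0 and 43.9 (MCT2 KO). MCT2 KO replicate 3 barely exceeded the highest MCT2 CO library, so a clear distance to the controls was seen in MCT2 KO replicate 1 alone. The means were 40.1 ± 4.16 and 46.5 ± 10.2 CPM (SD, n = 3), and the log2 fold change was 0.21 with a standard error of 0.16 (adjusted p = 0.702 by edgeR). Without MCT2 KO replicate 1 it was 0.037.

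*Ncf4* (ENSMUSG00000071715, 15:78244801-78262580, plus strand), whose product recognizes phosphatidylinositol 3-phosphate on phagosomes, had 115, 115 and 94.4 CPM (MCT2 CO) against 148, 102 and 120 (MCT2 KO). Its libraries stood in the same order as those of *Ncf1*, with MCT2 KO replicates 1 and 3 on top and MCT2 CO replicate 3 at the bottom. The means were 108 ± 11.8 and 123 ± 23.0 CPM (SD, n = 3), and the log2 fold change was 0.19 with an error of 0.14 (SE, adjusted p = 0.707 by edgeR), which became 0.048 without MCT2 KO replicate 1.

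Of the GTPases, *Rac1* (ENSMUSG00000001847, 5:143503634-143528036, minus strand), which also drives actin remodeling and phagocytosis, was the steadiest member. It had 365, 339 and 354 CPM (MCT2 CO) against 382, 388 and 351 (MCT2 KO), a span of 0.20 on the log2 scale over the 6 libraries, where the other members spanned 0.63 to 0.87. The means were 352 ± 13.01 and 374 ± 20.2 CPM (SD, n = 3), and the log2 fold change was 0.085 with a standard error of 0.086 (95% interval -0.11 to 0.28, adjusted p = 0.783 by edgeR). The interval excludes a change as large as the threshold of 0.58, as do those of *Ncf4* (-0.14 to 0.52) and, narrowly, *Ncf1* (-0.15 to 0.578).

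*Rac2* (ENSMUSG00000033220, 15:78559167-78572783, minus strand), the GTPase of the blood cell lineages, had 88.5, 98.7 and 89.9 CPM (MCT2 CO) against 118, 87.9 and 143 (MCT2 KO). Its highest library was MCT2 KO replicate 3 and its lowest MCT2 KO replicate 2, and the means were 92.4 ± 5.52 and 116 ± 27.4 CPM (SD, n = 3). The difference in spread between the groups was not tested. The log2 fold change, the largest of the 6 members, was 0.33 with a standard error of 0.16 (95% interval -0.043 to 0.70, adjusted p = 0.570 by edgeR). It was 0.50 without MCT2 KO replicate 2 and 0.16 without MCT2 KO replicate 3. *Rac3*, a close relative of both genes, was low, with means of 2.35 CPM (MCT2 CO) against 1.59 (MCT2 KO).

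**Figure D2:**
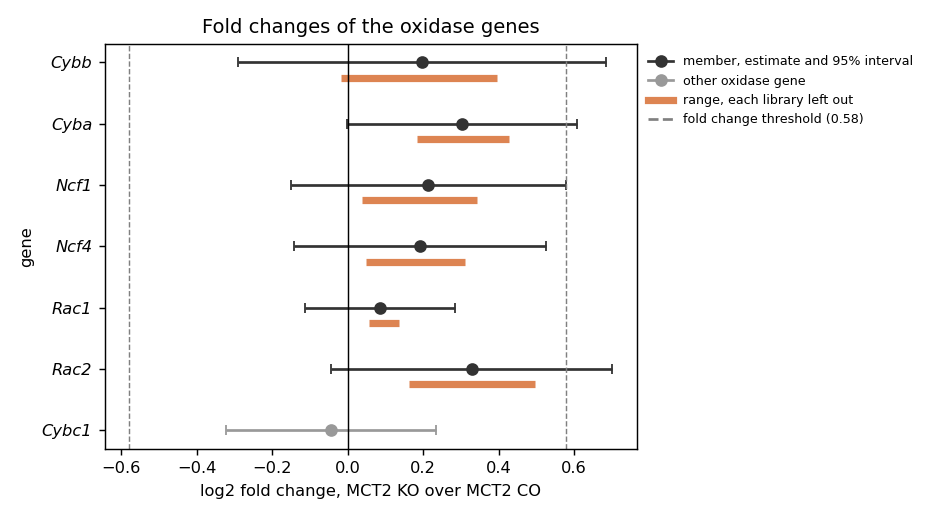
log2 fold change (MCT2 KO over MCT2 CO) of the 6 members and of *Cybc1*, a further gene of the oxidase, with 95% intervals from edgeR's quasi-likelihood test; orange bars give the range with each library left out in turn (members only), and dashed lines mark 0.58 in either direction. All 6 member estimates lie between 0.085 and 0.33 and all 6 intervals include 0.

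Without MCT2 KO replicate 2, the estimates of *Cyba*, *Ncf4*, *Ncf1*, *Cybb* and *Rac2* were 0.31 to 0.50 on the log2 scale. The unadjusted p then fell to 0.00181 for *Rac2*, 0.00356 for *Cyba*, 0.0348 for *Cybb*, 0.0420 for *Ncf1* and 0.0431 for *Ncf4* in edgeR's quasi-likelihood test, where 6.24% of all tested genes were higher at an unadjusted p under 0.05. The adjusted p values of the 6 members were 0.362 to 0.836 by edgeR without that library, so 0 of 6 were called, against 0.0147% of all genes tested. *Rac1*, at a log2 fold change of 0.057, did not share this shift. This was 1 of 6 fits that each left out a library, and others moved the opposite way. By the same test without MCT2 KO replicate 1, the unadjusted p of the 5 shifted genes ran from 0.117 (*Rac2*) to 0.921 (*Cybb*). Without MCT2 CO replicate 3 it ran from 0.139 (*Cyba*) to 0.707 (*Cybb*).

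Expressed as the log2 CPM relative to the mean of the 6 libraries, *Cybb*, *Cyba*, *Ncf1* and *Ncf4* had similar profiles. MCT2 KO replicate 1 was highest in all 4, by 0.37 to 0.49, and this library was the highest of the 6 for 20.4% of all tested genes. MCT2 CO replicate 3 was low in all 4, by 0.25 to 0.31, and MCT2 KO replicate 2 was also below the mean. The root mean square difference between the centred profiles of *Ncf1* and *Ncf4* was 0.040, the smallest between any 2 members, and that between *Cyba* and either of them was 0.078. *Cybb* lay further off, at 0.15 from *Cyba* and 0.12 from *Ncf1* and *Ncf4*. The likeness was not particular to the oxidase, since genes outside it lay nearer to *Cybb*, *Cyba* and *Ncf1* than any other member did. *Rac1* differed from each other member by 0.20 to 0.29.

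**Figure D3:**
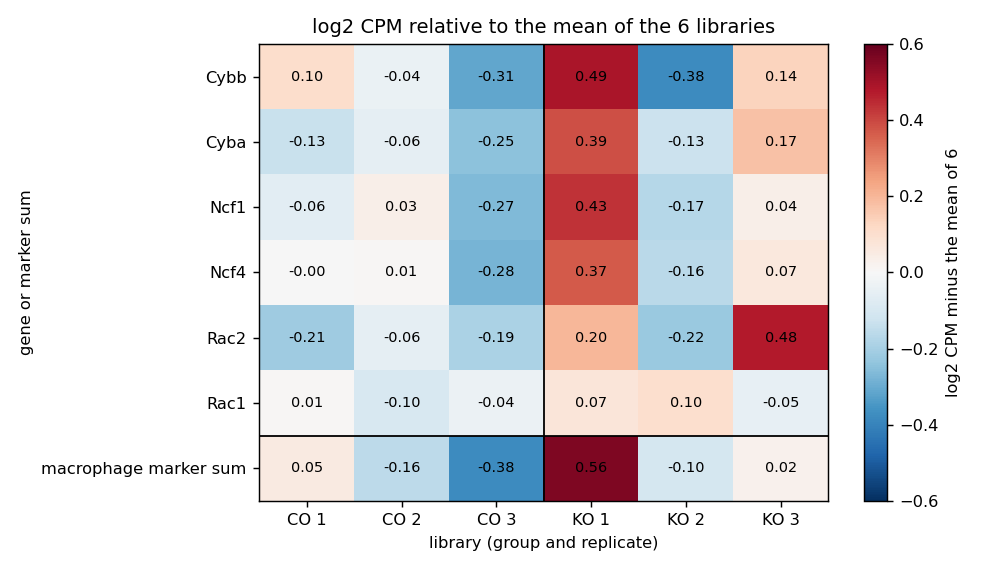
log2 CPM minus the mean of the 6 libraries (color and printed value) for the members and the summed macrophage markers (bottom row, log2 of the sum), with MCT2 CO libraries left and MCT2 KO libraries right of the line. The phox rows and the marker row are all highest in MCT2 KO replicate 1 (0.37 to 0.56), whereas *Rac2* is highest in MCT2 KO replicate 3 and *Rac1* is nearly flat.

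By the same measure over the 6 libraries, the genes nearest to *Cybb* were *Pde1b* (0.027), *Adap2* (0.037) and *Cd48* (0.038), where the median over all other tested genes was 0.33. Nearest to *Cyba* were *Pnpla2* (0.036), *Bin3* (0.038) and *Klc4* (0.046). For *Ncf1* they were *Card9* (0.030), *Ganc* (0.032) and *Nudt18* (0.039), and for *Ncf4* they were *Cd300ld* (0.041), *Ganc* (0.042) and *Slc6a6* (0.042). *Ganc* was thus near both cytosolic members. *Rac1* lay nearest to *Cpsf3* (0.016), *Gtf2b* (0.022) and *Dpagt1* (0.025), and *Rac2* to *Or2v1* (0.044), *Vamp1* (0.061) and *Rab39* (0.062).

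The macrophage markers moved with the same libraries. Their summed level was 5520 to 7438 CPM (MCT2 CO) against 6673 to 10578 (MCT2 KO), with the highest value in MCT2 KO replicate 1 and the lowest in MCT2 CO replicate 3 (exact permutation test, two-sided, p = 0.3, where 3 libraries against 3 allow no p below 0.1). All 10 tested markers had a log2 fold change above 0, with a median of 0.28. Set against this sum within each library, a scale added after the data were seen, all 6 members had a difference below 0. The log2 difference was -0.16 for *Cybb*, -0.14 for *Ncf4*, -0.12 for *Ncf1*, -0.031 for *Cyba*, -0.24 for *Rac1* and -0.017 for *Rac2*. The exact permutation tests, two-sided, gave p = 0.2 to 1.0 over 6 tests, not adjusted. The direction of the estimates therefore depended on whether they were scaled to the whole library or to this sum, in which *Lyz2* was the highest marker. For *Cyba* and *Rac2* the difference on the marker scale was smaller than the SD of either group. Their log2 fold changes on the library scale, 0.30 and 0.33, were above the marker median of 0.28.

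Neutrophils also carry much of this enzyme. Of 9 neutrophil markers tested, 8 had a log2 fold change above 0, and in 6 all MCT2 KO libraries were above all MCT2 CO libraries, against 7.07% of all tested genes. DESeq2 on every gene with a count called 5 of them higher in MCT2 KO, against 0.448% of its genes called in either direction, and edgeR called 0. The 12 listed markers summed to 385 to 584 CPM (MCT2 CO) against 406 to 751 (MCT2 KO), most of it from *Il1r2* and *Csf3r*. On this full list, the one planned, the groups overlapped (two-sided exact permutation p = 0.5). Without those, the other 10 markers summed to 9.08 to 12.5 CPM in MCT2 CO and to 66.6, 28.5 and 19.96 CPM in MCT2 KO replicates 1 to 3, without overlap (two-sided exact permutation p = 0.1), a list shortened after the data were seen. *Ly6g*, a defining gene of the lineage, had 0 to 4 counts per library, and *Elane* had 0 to 2 except for 15 in MCT2 KO replicate 1. The part of macrophage or neutrophil content in the members' values was not tested.

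Levels of different genes were compared as CPM per kilobase of exon, counting the exon bases of GENCODE M21 that lie outside the spans of other listed genes. This matters for *Ncf1*, 65.4% of whose 3663 exon bases lie inside *Gtf2ird2* on the opposite strand, and for *Rac1*, 51.4% of whose 4496 exon bases lie inside *Daglb* or *Gm42502*. In the count table's own coordinates, 45.0% of the *Ncf1* span and 13.9% of the *Rac1* span fall within those genes, and whether their reads were counted in full was not tested. For comparison, *G6pdx* and *Fpr2*, with 100% and 97.8% of their exon bases inside other genes, had 0 and 2 counts in all. *Arhgdib*, with 89.6%, had 322 to 573 counts per library. The spans of *Cybb*, *Cyba*, *Ncf4* and *Rac2* met no other listed gene. The deposited gene lengths equal the whole gene span, introns included, for all 25701 genes. Reads in introns may thus be part of the counts, which was not tested. If they are, the order of genes and their ranks per kilobase of exon could differ from those given here.

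On this scale the MCT2 CO order was *Rac1* (161 ± 5.95 CPM per kilobase), *Cyba* (155 ± 10.2), *Cybb* (93.7 ± 13.3), *Ncf4* (53.5 ± 5.86), *Ncf1* (31.6 ± 3.28) and *Rac2* (29.8 ± 1.78, SD, n = 3 each). In MCT2 KO it was *Cyba* (191 ± 33.4), *Rac1* (171 ± 9.24), *Cybb* (107 ± 31.2), *Ncf4* (61.1 ± 11.4), *Rac2* (37.4 ± 8.82) and *Ncf1* (36.7 ± 8.003). *Rac1* and *Cyba* changed places between the groups, as did *Ncf1* and *Rac2*, and in both pairs the difference was within the spread between libraries. Over the 6 libraries, *Cyba* was above 98.7% of the tested genes on this scale and *Rac2*, the lowest member, above 88.3%. Divided by all exon bases instead, *Rac1* came to 80.7 and *Ncf1* to 11.8 CPM per kilobase, which puts *Rac1* below *Cybb* and *Ncf1* last.

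**Figure D4:**
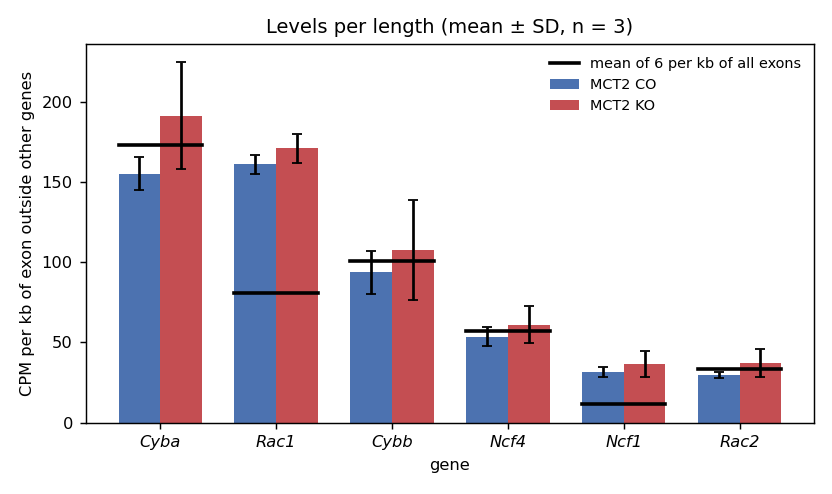
CPM per kilobase of exon outside other listed genes (bars, mean ± SD, n = 3, linear axis from 0) for MCT2 CO (blue) and MCT2 KO (red); the black line gives the mean of the 6 libraries per kilobase of all exons. The black line falls below the bars for *Rac1* (80.7) and *Ncf1* (11.8), whose exons lie partly inside other genes.

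Ratios between partners within a library do not depend on how libraries are scaled. The log2 ratio of *Ncf4* to *Ncf1* counts was the most constant, at 1.48, 1.40 and 1.41 in MCT2 CO and 1.36, 1.43 and 1.45 in MCT2 KO, a difference of -0.017 (exact permutation test, two-sided, p = 0.7). The log2 ratio of *Cyba* to *Cybb*, the chains of the core, was -1.92, -1.70 and -1.62 in MCT2 CO and -1.79, -1.44 and -1.65 in MCT2 KO (difference 0.12, exact permutation test, p = 0.5). The groups overlapped in each case. The log2 ratio of *Rac2* to *Rac1* was -2.04, -1.78 and -1.98 in MCT2 CO and -1.70, -2.14 and -1.30 in MCT2 KO (difference 0.22, exact permutation test, p = 0.6). MCT2 KO replicate 2 had the lowest and MCT2 KO replicate 3 the highest value of all libraries. Each of these 3 exact permutation tests could reach p = 0.1 at the lowest, and after Benjamini–Hochberg adjustment over the 3 the exact p was 0.7 for each.

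**Figure D5:**
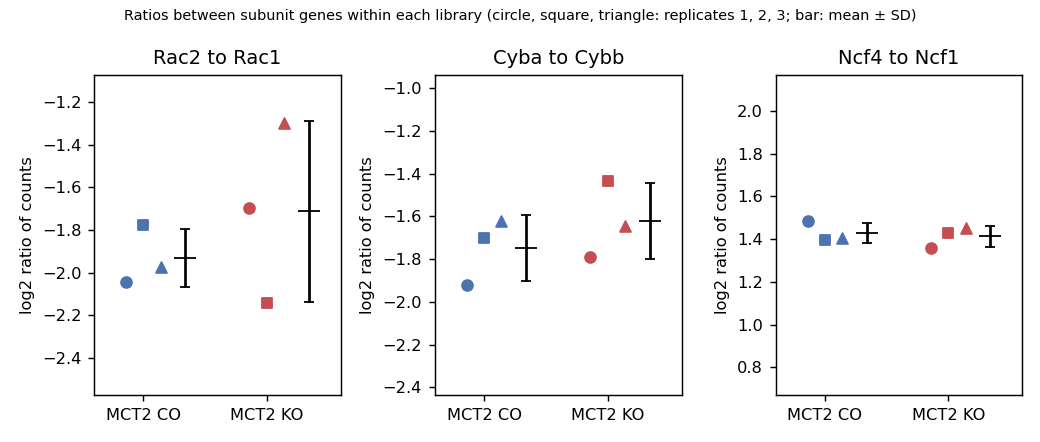
log2 ratio of the counts of 2 members in the same library, for *Rac2* to *Rac1*, *Cyba* to *Cybb* and *Ncf4* to *Ncf1*, drawn with the same axis length of 1.5 log2 units; blue, MCT2 CO, and red, MCT2 KO, with the mean ± SD (n = 3) in black. *Ncf4* to *Ncf1* varies least (1.36 to 1.48) and *Rac2* to *Rac1* most (-2.14 to -1.30).

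The remaining parts of the oxidase were read from a list of 14 partners and relatives, 9 of them with enough counts to test, 4 with a log2 fold change above 0 and 5 below (median -0.044), and 0 passed the test. *Cybc1*, whose product is needed for the core to mature, had 48.0 ± 5.54 CPM (MCT2 CO) against 46.6 ± 5.53 (MCT2 KO, SD, n = 3). Of the relatives of the catalytic subunit, *Nox4* had 3.07 and 2.41 CPM and *Nox1* 1.32 and 1.26 CPM in MCT2 CO and MCT2 KO. *Duox1* had 0.958 ± 0.0508 and 0.647 ± 0.171 CPM, a log2 fold change of -0.55 (adjusted p = 0.595 by edgeR). *Nox3*, *Noxa1*, *Duox2*, *Duoxa1* and *Duoxa2* did not pass the filter. Per kilobase of exon, *Cybb* stood at 93.7 and 107 CPM in MCT2 CO and MCT2 KO, *Nox1* at 0.455 and 0.434, *Nox4* at 0.362 and 0.284, and *Duox1* at 0.182 and 0.123.

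Upstream of the enzyme, the receptors that trigger the burst had the highest median of these lists. Of 15 listed, 14 were tested, 13 had a log2 fold change above 0 with a median of 0.34, and 0 passed the test, while 4 were higher at an unadjusted p under 0.05, against 3.77% of all tested genes. *Fcgr3*, an activating Fc gamma receptor, had 146 ± 20.3 CPM (MCT2 CO) against 208 ± 35.7 (MCT2 KO, log2 fold change 0.51 with a standard error of 0.15, adjusted p = 0.426 by edgeR). *Tlr4*, the endotoxin receptor, had 42.1 ± 3.36 and 52.3 ± 3.47 CPM (0.31, adjusted p = 0.429). For both genes every MCT2 KO library was above every MCT2 CO library, as for 7.07% of all tested genes. *Fpr2* had 2 counts over the 6 libraries together, with 97.8% of its exon bases inside *Fpr3*.

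The activating kinases and lipid enzymes, 17 genes, were all tested, with 15 above 0, a median of 0.12 and 0 calls. *Pik3c3*, which makes the lipid that p40phox binds, had 29.5 ± 0.275 CPM (MCT2 CO) against 34.4 ± 2.78 (MCT2 KO, log2 fold change 0.22, adjusted p = 0.524 by edgeR), and *Mapk3*, a kinase of the MAPK family, 161 ± 5.39 and 187 ± 18.5 (0.21, adjusted p = 0.539). The 21 Rac regulators were evenly split, 10 above and 11 below 0, with a median of -0.0053 and 0 calls. The lowest p of the list was that of *Arhgdib*, with 13.1 ± 1.10 and 18.6 ± 1.15 CPM and every MCT2 KO library above every MCT2 CO library (log2 fold change 0.50 with a standard error of 0.11, adjusted p = 0.370 by edgeR and 0.0367 by DESeq2, under the fold threshold of 0.58 in both). Of its exon bases, 89.6% lie inside *Pde6h*. *Tiam2*, a Rac exchange factor and the next by p, had 32.5 ± 8.94 and 23.9 ± 1.18 CPM (log2 fold change -0.44, adjusted p = 0.513 by edgeR).

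Of 13 transcription factors with known roles at the subunit genes, 12 were tested, 5 were above and 7 below 0 (median -0.062), and 0 passed the test. *Spi1*, which encodes PU.1, had mean CPM of 139 and 158, and *Irf8* of 116 and 134, in MCT2 CO and MCT2 KO. The lowest p values were those of *Cebpb* (15.1 ± 3.39 and 10.3 ± 1.78 CPM, log2 fold change -0.55, adjusted p = 0.475 by edgeR, 60.4% of its exon bases inside *Tmem189*) and *Satb1* (4.51 ± 1.05 and 2.88 ± 0.721 CPM, -0.65, adjusted p = 0.507).

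For the supply of NADPH, 7 of 8 listed genes were tested, 5 were above and 2 below 0 (median 0.16), and 0 passed the test. *Pgd*, an enzyme of the pentose phosphate pathway that makes NADPH, had 153 ± 6.22 CPM (MCT2 CO) against 180 ± 10.7 (MCT2 KO, log2 fold change 0.23 with a standard error of 0.082, adjusted p = 0.489 by edgeR). *Tkt*, of the same pathway, had 252 ± 11.2 and 288 ± 9.93 CPM (0.19, adjusted p = 0.533). In 4 of the 7, all MCT2 KO libraries were above all MCT2 CO libraries, against 7.07% of all tested genes. *G6pdx*, the first enzyme of the pathway, had 0 counts, and 100% of its exon bases lie inside *Ikbkg*.

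Among 13 genes that remove or use superoxide and peroxide, 11 were tested, with 5 above and 6 below 0 (median -0.0099) and 0 calls. *Sod3*, the extracellular superoxide dismutase, had 8.91 ± 0.856 CPM (MCT2 CO) against 6.16 ± 0.545 (MCT2 KO, log2 fold change -0.53 with a standard error of 0.14, adjusted p = 0.408 by edgeR). *Prdx6*, a peroxiredoxin, had 107 ± 4.13 and 133 ± 17.1 CPM (0.32, adjusted p = 0.444). Over all 101 genes of these lists, 91 were tested, 57 were above and 34 below 0 with a median of 0.080, 10 were higher and 4 lower at an unadjusted p under 0.05, against 3.77% and 5.6% of all tested genes, and 0 passed edgeR's or DESeq2's thresholds.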

How the data were processed

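Bulk RNA-seq counts were analysed for 3 MCT2 CO and 3 MCT2 KO libraries. The authors prepared stranded poly-A libraries, checked read quality (FastQC 0.12.0, MultiQC 1.28), mapped reads to GRCm38 by STAR 2.7.11b, and deposited raw counts per gene from featureCounts 2.1.1, without normalization. The annotation, feature type and strand setting of the counting are not given in the sources used here. The deposited gene lengths equal the whole gene span for all 25701 genes and were not used. Of the 25594 genes of the table found in GENCODE M21 (GRCm38), 2.2% had the same position, so positions and exon lengths were taken from GENCODE M21 by Ensembl identifier. So low a share is at odds with GRCm38 as the stated build of the counts, and the cause was not tested.

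Low genes were removed with filterByExpr (at least 10 counts in a library of typical size, 15 in total), and the rest were normalized by TMM and tested with edgeR 4.0.16 (R 4.3.3) without covariates. Benjamini–Hochberg adjustment ran over all 13485 genes. Standard errors were taken from the quasi-likelihood F statistic, and 95% intervals from the t distribution with its degrees of freedom. The alternatives used DESeq2 1.42.0 and limma 3.58.1. For single values, two-sided exact permutation tests over the libraries were used. The scripts were tested on simulated counts. The labels give separate samples without naming animals, so p values measure the spread between these samples. All replicate pairs differed beyond sampling noise. The smallest count of a member was 946, a counting error of 3.25%. Groups came from the sample titles. The members, gene lists and the rule for named genes (the members, the targeted gene, the 2 lowest p values of each list, *Cybc1*, described markers, and the 3 genes nearest to each member) were chosen with earlier results of these data known; *Nox1*, *Nox4*, the 5 oxidase relatives too low to test, *Rac3*, *Spi1*, *Irf8*, *Fpr2* and *G6pdx* were named outside that rule, after their values were seen. A result that this rule would add for 1 gene of the lists is not reported here.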

Additional observations from a re-analysis of the deposited data

How the results depend on the processing

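None of the 6 members passed the thresholds under any of the 16 alternatives. *Cyba*, *Ncf1*, *Ncf4*, *Rac1* and *Rac2* kept a log2 fold change above 0 in all alternatives but the macrophage scaling described here. *Cybb* also fell below 0 without 1 library. With each library left out in turn it ranged from -0.019 (without MCT2 KO replicate 1) to 0.40. Scaled to the summed macrophage markers, the sign turned for all 6: -0.16 for *Cybb*, -0.031 for *Cyba*, -0.12 for *Ncf1*, -0.14 for *Ncf4*, -0.24 for *Rac1* and -0.017 for *Rac2*. This scale, added after the data were seen, divides by a sum whose mean was itself higher in MCT2 KO, with groups that overlapped. On it, the differences of *Cyba* and *Rac2* were smaller than the SD of either group. The other scalings moved the median of all genes by at most 0.020.

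The number of genes called was 0 in the reported test, 79 by DESeq2 on the same genes, 83 by DESeq2 on every gene with a count, and 2 by edgeR on that larger set. With each library left out it ranged from 0 to 2, the latter without MCT2 KO replicate 2. *Slc16a7* passed by DESeq2, at log2 fold changes of -1.05 and -1.04 on these gene sets, with adjusted p values of 0.00952 and 0.00908, within a range of 0.00908 to 0.765 over all its alternatives. The cause of these differences between tests was not tested. The log2 ratio of *Ncf4* to *Ncf1* differed by -0.035 to 0.011 with each library left out. Left-out libraries also turned the sign for the summed T cell markers (-10.5 to 20.4 CPM) and monocyte markers (-271 to 92.3 CPM).

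Same-numbered libraries did not deviate together (correlations of 0.216, -0.247 and -0.161), so the numbers were not taken as a pairing. With the replicate number as a block, 0 genes were called, and the members had log2 fold changes of 0.084 to 0.30 and no call. Depth did not limit the members, but genes at under 1 CPM, such as *Duox1*, rest on few counts.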
